A study of Mus musculus with 4 samples.

Results

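Fibroblast growth factors (FGFs), their receptors and the genes that FGF signalling induces to restrain or carry its own output were examined in whole mouse embryos. Members were the genes whose name in the array annotation is *Fgf* with a number, *Fgfr1* to *Fgfr4*, *Spry1* to *Spry4*, *Spred1* to *Spred3*, *Etv4*, *Etv5* or *Dusp6*, which gave 36 of the 37074 gene names on the array. They comprised 22 genes of the FGF family, 4 receptors and 10 feedback and target genes.

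The study compared mice lacking *Dyrk2*, a gene for a protein kinase, with wild type (WT) mice, to ask how the loss changes gene expression in the embryo. The mutants were made with a CRISPR/Cas9 nickase, which left small deletions in *Dyrk2*, and which deletion line was put on the arrays is not given in the sources used here. The sample labels give the strain of all 4 samples as C57BL/6. The 4 groups were WT at E8.5, *Dyrk2*-/- at E8.5, WT at E10.5 and *Dyrk2*-/- at E10.5 (E, embryonic day), with 1 array each, and the number of embryos behind each RNA is not given.

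FGFs are secreted proteins that bind receptor tyrosine kinases on neighbouring cells together with heparan sulphate, and the receptors pass the signal on through the RAS and ERK kinases. In the embryo FGFs from the primitive streak and tail bud keep the progenitors of the trunk undifferentiated and set the pace of segmentation, and other FGFs pattern the midbrain and hindbrain border, the limb buds, the heart and the ear. Active signalling switches on its own brakes, the Sprouty and Spred proteins and the ERK phosphatase DUSP6, along with the ETS transcription factors ETV4 and ETV5, so that the transcripts of these genes are widely used as a readout of the pathway.

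Each array carried 56605 probes for transcripts, of which 31371 were well above background by the scanner's own mark at E8.5 in WT and 30227 in *Dyrk2*-/-, with 31819 and 31943 for the same genotypes at E10.5. A level is the log2 signal of a gene's brightest probe relative to the 75th percentile of its array, and levels of different genes cannot be set against each other because probes differ in brightness. With 1 array per group, no test was made between genotypes at a stage or between stages in a genotype, so precision is limited by the number of arrays. A difference of 1.5-fold or more was called. The scanner software's error model put the measurement error of a log2 difference between arrays at 0.20 to 0.40 for members above background on both, which does not include the spread between embryos.

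*Dyrk2* itself was at log2 levels of 0.06 (WT) and 0.76 (*Dyrk2*-/-) at E8.5, with −0.31 and 0.34 at E10.5. The gene's brightest probe was thus 1.62-fold higher at E8.5 and 1.57-fold higher at E10.5 on the array labelled *Dyrk2*-/-, and the other probe was 1.02-fold and 1.21-fold higher. Neither probe is known to lie in the deleted stretch, so the level does not check the labels. Every direction between genotypes below rests on the labels alone, and *Dyrk2*-/- stands for the array labelled so.

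Of the 36 members, 29 were well above background on all 4 arrays, *Fgf14* on 1 array, and 6 (*Fgf2*, *Fgf7*, *Fgf16*, *Fgf20*, *Fgf21* and *Fgf22*) on 0 arrays. Of all 37074 gene names, 18686 were above background on 4 arrays and 14946 on 0. The 6 unmeasured ligands come from 4 of the 7 groups of the family, and every receptor and every feedback gene was measured. *Fgf2* is a ligand best known from endothelium and pluripotent cell culture, *Fgf7* and *Fgf22* signal from mesenchyme or neurons to epithelia and synapses, *Fgf16* and *Fgf20* act in the heart and inner ear, and *Fgf21* is a liver hormone.

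**Figure D1:**
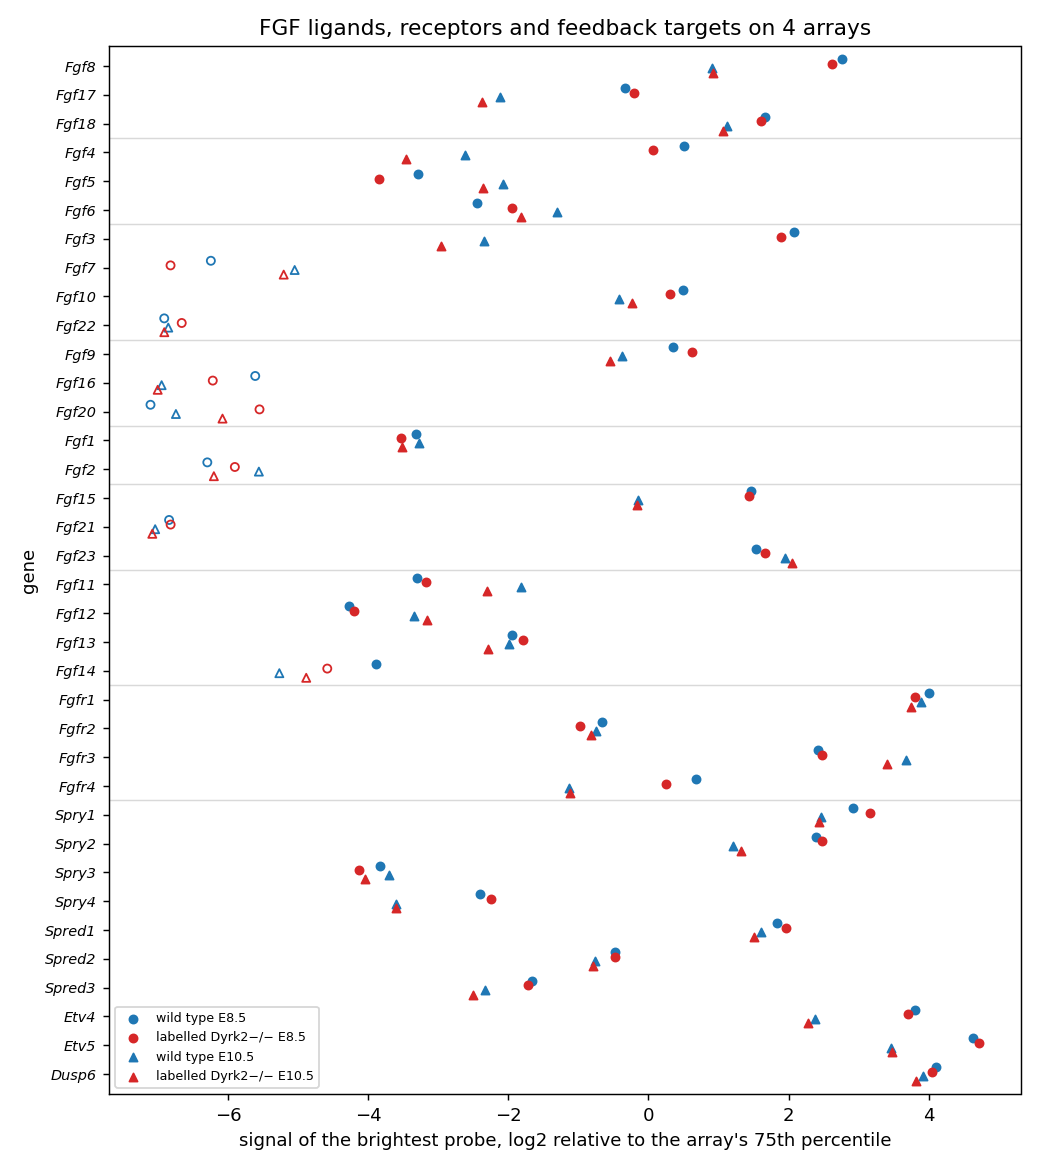
Signal of the brightest probe of each member (log2 relative to the 75th percentile of the array) on 4 arrays, in blue for WT and red for arrays labelled *Dyrk2*-/-, with circles for E8.5 and triangles for E10.5. Filled symbols were well above background and open symbols were not, and for 16 members, among them *Fgf3* with levels of 2.07 and −2.35 in WT, circles and triangles are 1.5-fold or more apart in both genotypes.

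More members were called between stages than between genotypes. From E8.5 to E10.5 in WT, 14 of 30 measured members were lower and 5 higher, beside 15.9% of all genes lower and 17.3% higher. In *Dyrk2*-/-, 13 of 29 measured members were lower and 4 higher, beside 13.3% of all genes lower and 14.9% higher. With spike-in scaling, under which 93.3% of all genes called in *Dyrk2*-/- were higher, the members called there were 9 lower and 10 higher. The median log2 difference of the members was −0.50 in WT and −0.53 in *Dyrk2*-/-, and that of all genes −0.08 and −0.05. Both genotypes called 12 of the same members lower and 4 of the same members higher, beside 1894 and 2410 of all genes. In whole embryos, fewer cells of a type and less RNA per cell cannot be told apart, and the embryo at E10.5 holds organs that are absent at E8.5.

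limma, fitted over all 4 arrays with stage and genotype as terms, called 15 of 29 members lower at E10.5 and 5 higher, beside 20.5% of all genes lower and 17.2% higher (adjusted p under 0.05). With spike-in scaling it called 4 members, *Fgf3*, *Fgf4* and *Fgf17* lower and *Fgf5* higher, beside 1926 of 20901 genes in place of 7873. The stage calls by limma given below for the brightest probes of other members were lost under that scaling. The limma fit has 1 residual degree of freedom and takes most of its spread from other probes, with a prior of 8.07 degrees of freedom. On simulated arrays this prior was mostly estimated too high, so the adjusted p-values can be too small. Its p-values are given with n = 4 arrays, and whether each array held more than 1 embryo is not known. Each group had 1 array, so a probe's residual holds only how far its stage differences in WT and *Dyrk2*-/- lie apart. The SE and p-values from limma therefore do not measure the spread between replicate RNAs or embryos.

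The FGF8 subfamily holds the ligands most tied to the tail bud and the midbrain and hindbrain border. *Fgf8*, the main ligand of the primitive streak and of the midbrain and hindbrain organizer, was at log2 levels of 2.76 (WT) and 2.63 (*Dyrk2*-/-) at E8.5, with 0.91 and 0.92 at E10.5. *Fgf17*, which shares the posterior and midbrain domains of *Fgf8*, was at −0.33 and −0.21 at E8.5, with −2.12 and −2.37 at E10.5. Both were high in both genotypes at E8.5 and low in both at E10.5, and genotypes lay close together at either stage. *Fgf8* was 3.62-fold lower at E10.5 in WT and 3.26-fold lower in *Dyrk2*-/- (limma log2 difference −1.78 ± 0.13 SE, adjusted p = 1.30e-05). *Fgf17* was 3.45-fold and 4.48-fold lower (−1.97 ± 0.17 SE, adjusted p = 3.90e-05). *Fgf18*, a ligand of somites, brain and later of bone, differed less, by log2 −0.55 in WT and −0.53 in *Dyrk2*-/-, under the 1.5-fold threshold in each, and limma called it lower at E10.5 (−0.54 ± 0.13 SE, adjusted p = 0.00982).

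*Fgf3* and *Fgf4* gave the steepest falls among the members. *Fgf3*, a ligand of the FGF7 subfamily that acts in the tail bud, hindbrain and ear vesicle, was at log2 levels of 2.07 (WT) and 1.88 (*Dyrk2*-/-) at E8.5, with −2.35 and −2.97 at E10.5. *Fgf4*, which works beside *Fgf8* in the presomitic mesoderm and later in the ridge of the limb bud, was at 0.51 and 0.07 at E8.5, with −2.62 and −3.47 at E10.5. For both genes the E8.5 arrays were high and the E10.5 arrays low, and *Dyrk2*-/- at E10.5 was the lowest array. From E8.5 to E10.5 *Fgf3* was 21.5-fold lower in WT and 28.9-fold lower in *Dyrk2*-/- (limma −4.64 ± 0.16 SE, adjusted p = 3.43e-07). *Fgf4* was 8.71-fold and 11.6-fold lower (−3.33 ± 0.17 SE, adjusted p = 2.25e-06). These folds stayed past the threshold under each of 6 ways of scaling the arrays, with log2 differences from −4.50 to −3.71 for *Fgf3* and from −3.19 to −2.36 for *Fgf4* in WT. In *Dyrk2*-/- the differences ran from −4.87 to −3.78 and from −3.61 to −2.34. The smaller end of each range came with a normexp background correction.

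*Fgf3* had 3 probes on the array, and every one was lower at E10.5. The brightest lies at chr7:152029194-152029253 (mm9) and gave the values above. The next, at chr7:152029825-152029884, was at log2 levels of −0.74 (WT) and −0.76 (*Dyrk2*-/-) at E8.5 and −4.28 in WT at E10.5, and in *Dyrk2*-/- at E10.5 it was not well above background. The last was at −0.76 and −0.67 at E8.5 and not well above background on either E10.5 array. This probe runs over 60 bases whose ends the annotation sets 1860 bases apart, at chr7:152026667-152028526 (mm9, plus strand), so it reads across a junction of spliced *Fgf3* RNA. It is shown because it can pair in full only with the spliced transcript.
Fgf3 probe across the junction: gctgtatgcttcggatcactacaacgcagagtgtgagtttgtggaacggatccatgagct
Which other probes lie in coding or untranslated sequence was not determined, since no gene annotation of mm9 was used here.

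The remaining members of these subfamilies took other courses. *Fgf5*, first a marker of the epiblast and later a brake on hair growth, was at log2 levels of −3.29 (WT) and −3.85 (*Dyrk2*-/-) at E8.5, with −2.08 and −2.36 at E10.5. Both E10.5 arrays were above both E8.5 arrays. It was 2.31-fold higher at E10.5 in WT and 2.81-fold higher in *Dyrk2*-/- (limma 1.35 ± 0.23 SE, adjusted p = 0.00208). With a normexp correction the log2 differences of *Fgf5* were 0.54 and 0.49, under the threshold in both genotypes. *Fgf6*, a ligand of the muscle lineage, was called only in WT by its brightest probe. There it was 2.20-fold higher at E10.5, against 1.09-fold in *Dyrk2*-/-, and limma did not call that probe (adjusted p = 0.0707). The other probe of *Fgf6* was higher at E10.5 in both, by 5.23-fold in WT and at least 2.43-fold in *Dyrk2*-/-. limma called this other probe higher (adjusted p = 0.000692), with a *Dyrk2*-/- value at E8.5 that was not well above background. The probes thus do not give 1 answer for *Fgf6*. *Fgf10*, the mesenchymal signal for limb and lung buds, was 1.88-fold lower at E10.5 in WT and 1.46-fold lower in *Dyrk2*-/-, with an adjusted p of 0.00542 in limma. Whether either stage difference itself differs between genotypes was not tested.

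*Fgf3*, *Fgf4* and *Fgf15* are neighbours on mouse chromosome 7. Their brightest probes start at 152029194, 152051089 and 152086371 (mm9), with 21.9 kilobases between the first pair and 35.3 kilobases between the second. *Fgf15*, the mouse counterpart of human FGF19, is made in the neural tube and later in the ileum, where it acts as a hormone on bile acid synthesis. *Fgf15* was at log2 levels of 1.46 (WT) and 1.44 (*Dyrk2*-/-) at E8.5, with −0.15 and −0.16 at E10.5. All 3 neighbours were thus lower at E10.5 in both genotypes, and *Fgf15* by 3.04-fold in each (limma −1.60 ± 0.13 SE, adjusted p = 2.93e-05). *Fgf6* and *Fgf23* form the other pair of close neighbours, 52.6 kilobases apart on chromosome 6, and their stage differences are given with their subfamilies.

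**Figure D2:**
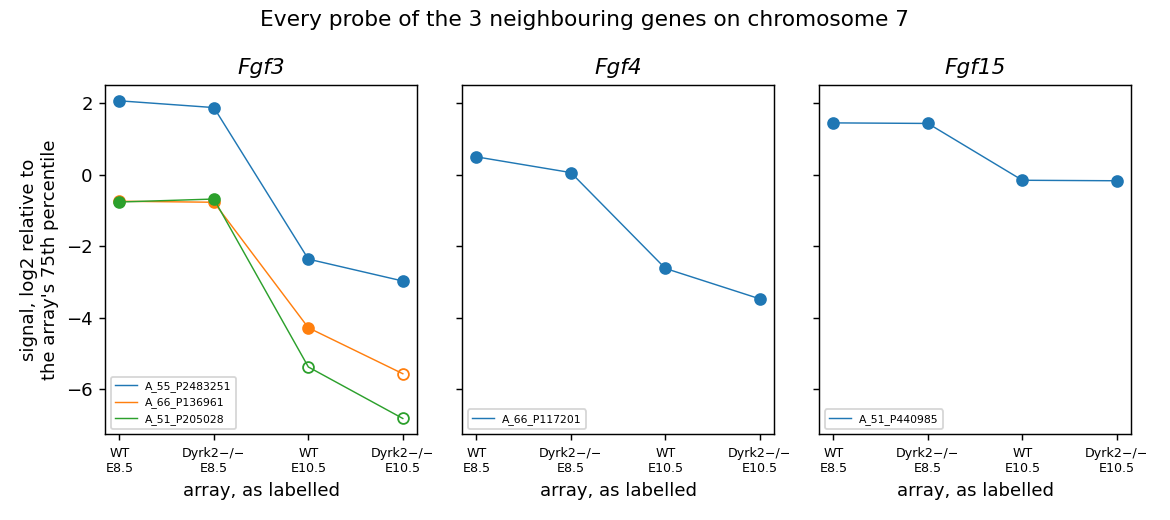
Signal of every probe of *Fgf3*, *Fgf4* and *Fgf15* (log2 relative to the 75th percentile of the array, y axis) on each of the 4 arrays (x axis), with 1 line per probe and open symbols where the probe was not well above background. All 5 probes are lower on both E10.5 arrays than on both E8.5 arrays, and between the E10.5 arrays the *Fgf4* probe differs by −0.85 and the *Fgf15* probe by −0.01.

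Promoters of *Fgf3* and *Fgf4* are printed because these neighbours moved together. The RefSeq table (GRCm38.p6) gives 250 bases before and 50 after the start of each gene, and 26 of the 36 members had a promoter entry. Motifs searched on both strands were GGAAG (a core of ETS factor sites, in 71.4% of 32851 promoters), CTTTGA (a core of TCF and LEF sites, in 16.0%) and AGGTGT (a core of T-box sites, in 13.7%), and matches are in capitals. The *Fgf3* promoter, at chr7:144838362-144838661 on the plus strand, held 4 matches to the first, 1 to the second and 0 to the third, and the *Fgf4* promoter, at chr7:144861136-144861435 on the plus strand, held 0 of each. No 2 matches overlapped.
Fgf3 promoter: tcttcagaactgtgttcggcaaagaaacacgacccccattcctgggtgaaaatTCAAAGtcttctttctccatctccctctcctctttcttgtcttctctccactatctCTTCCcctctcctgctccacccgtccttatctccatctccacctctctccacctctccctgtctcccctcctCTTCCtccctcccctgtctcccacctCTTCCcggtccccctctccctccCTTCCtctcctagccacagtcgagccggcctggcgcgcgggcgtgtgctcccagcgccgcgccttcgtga
Fgf4 promoter: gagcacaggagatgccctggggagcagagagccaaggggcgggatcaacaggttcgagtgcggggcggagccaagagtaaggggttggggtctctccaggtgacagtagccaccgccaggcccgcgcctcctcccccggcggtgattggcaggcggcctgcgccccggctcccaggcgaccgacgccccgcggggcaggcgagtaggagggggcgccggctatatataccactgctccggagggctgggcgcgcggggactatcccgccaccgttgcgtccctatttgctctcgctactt
Among the 26 members with a promoter entry, 20 held the first motif, 3 (*Fgf3*, *Fgf6* and *Fgf23*) the second and 3 (*Fgf5*, *Fgf12* and *Fgfr3*) the third. These matches describe the letters in a window and say nothing of binding.

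*Fgf9* was the measured ligand of its subfamily, with roles in lung mesenchyme and in the forming testis. It was at log2 levels of 0.35 (WT) and 0.62 (*Dyrk2*-/-) at E8.5, with −0.37 and −0.56 at E10.5, high at E8.5 and low at E10.5. It was 1.65-fold lower at E10.5 in WT and 2.26-fold lower in *Dyrk2*-/- (limma −0.95 ± 0.16 SE, adjusted p = 0.0017). It was under the threshold in WT without scaling (−0.54) and in *Dyrk2*-/- with spike-in scaling (also −0.54). *Fgf1*, the ligand that can engage every FGF receptor, stayed between −3.53 and −3.28 on all arrays. *Fgf23*, known from adult bone as the hormone of phosphate balance, was measured on all 4 arrays at 1.53 to 2.05 and was 1.34-fold higher at E10.5 in WT and 1.31-fold higher in *Dyrk2*-/-, with an adjusted p of 0.0305 in limma.

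The FGF homologous factors *Fgf11* to *Fgf14* are kept inside the cell, bind sodium channels of excitable cells and do not act as ligands. *Fgf11* was at log2 levels of −3.30 (WT) and −3.18 (*Dyrk2*-/-) at E8.5, with −1.81 and −2.30 at E10.5. *Fgf12* was at −4.27 and −4.20 at E8.5, with −3.35 and −3.16 at E10.5. Both were low at E8.5 and high at E10.5 in both genotypes. *Fgf11* was 2.80-fold higher at E10.5 in WT and 1.83-fold higher in *Dyrk2*-/- (limma 1.18 ± 0.23 SE, adjusted p = 0.00448). *Fgf12* was 1.89-fold and 2.06-fold higher (0.98 ± 0.30 SE, adjusted p = 0.03), and with a normexp background correction its differences were 0.18 and 0.07 (log2), under the threshold. The mean over the *Fgf12* probes was also under it in WT (0.53), and limma did not call *Fgf12* with quantile normalization, normexp, spike-in scaling, the deposited values or no filter. That mean takes in probes that no array showed well above background. The other measured *Fgf12* probe was at least 1.60-fold higher in WT and at least 1.51-fold higher in *Dyrk2*-/-. For *Fgf11* the normexp correction gave 0.73 in WT and 0.33 in *Dyrk2*-/-, the latter under the threshold. The other measured probe of *Fgf11* was 2.46-fold higher in WT and 1.20-fold higher in *Dyrk2*-/-, and the mean over its probes in *Dyrk2*-/- was 0.57, also under the threshold. The *Fgf11* mean likewise takes in a probe that no array showed well above background. *Fgf13*, on the X chromosome, differed by −0.05 in WT and by −0.51 in *Dyrk2*-/- and was not called.

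*Fgf14* was above background on the WT E8.5 array alone, at a log2 level of −3.89, against −4.59, −5.27 and −4.89 on the *Dyrk2*-/- E8.5, WT E10.5 and *Dyrk2*-/- E10.5 arrays. For such a gene the fold is a bound, taken against its own value on the dim array or, if that is higher, against the dimmest probe there that was well above background (log2 −4.53 for *Dyrk2*-/- at E8.5 and −4.72 for WT at E10.5). *Fgf14* was at least 1.56-fold lower in *Dyrk2*-/- than in WT at E8.5 and at least 1.78-fold lower at E10.5 than at E8.5 in WT, and a normexp correction brought the latter to −0.40 (log2), under the threshold. The mean over probes did not call this stage difference. No array showed the other *Fgf14* probe well above background.

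Of the 4 receptors, all of which are tyrosine kinases, 1 rose and 1 fell between the stages. *Fgfr3*, the receptor of neural progenitors and later of cartilage, was at log2 levels of 2.41 (WT) and 2.47 (*Dyrk2*-/-) at E8.5, with 3.67 and 3.41 at E10.5. *Fgfr4*, a receptor of definitive endoderm and of muscle progenitors, was at 0.68 and 0.25 at E8.5, with −1.14 and −1.12 at E10.5. *Fgfr3* was thus low at E8.5 and high at E10.5 in both genotypes, and *Fgfr4* the reverse. *Fgfr3* was 2.39-fold higher at E10.5 in WT and 1.92-fold higher in *Dyrk2*-/- (limma adjusted p = 0.000248). With the mean over its probes *Fgfr3* differed by 0.77 in WT and by 0.52 in *Dyrk2*-/-, the latter under the threshold. That mean takes in a probe that no array showed well above background. The other measured *Fgfr3* probe was 1.92-fold higher in WT and 1.89-fold higher in *Dyrk2*-/-. *Fgfr4* was 3.53-fold and 2.58-fold lower (−1.59 ± 0.16 SE, adjusted p = 9.79e-05).

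*Fgfr1*, the receptor of mesoderm that gastrulation needs, and *Fgfr2*, the receptor of limb ectoderm and other epithelia, differed little between stages. *Fgfr1* lay between log2 levels of 3.75 and 4.01 on the 4 arrays and *Fgfr2* between −0.98 and −0.67. With these brightest probes neither passed 1.5-fold in any of the 4 comparisons, and the adjusted p for stage in limma was 0.629 for *Fgfr1* and 0.855 for *Fgfr2*. With spike-in scaling both passed it between stages in *Dyrk2*-/-. Dimmer probes differed from these brightest ones. Of the 3 other *Fgfr1* probes, 1 was 1.53-fold lower at E10.5 in WT and another 1.57-fold lower in *Dyrk2*-/-. limma called both of these probes lower at E10.5 (adjusted p = 0.0117 and 0.0202) and did not call the remaining one (adjusted p = 0.671). The other *Fgfr2* probe was at least 1.69-fold higher at E10.5 in *Dyrk2*-/-, and limma did not call it (adjusted p = 0.119). Between genotypes no receptor was called at either stage by its brightest probe. These differences ran from −0.43 (*Fgfr4*) to 0.06 at E8.5 and from −0.26 (*Fgfr3*) to 0.02 at E10.5. Of the other *Fgfr4* probes, 1 differed by −0.08 at E8.5 and 1 by 0.15. With spike-in scaling *Fgfr1*, *Fgfr2* and *Fgfr4* were called lower in *Dyrk2*-/- at E8.5, and without scaling *Fgfr4* was.

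The ETS factors and the ERK phosphatase are direct transcriptional targets of the pathway. *Etv4* was at log2 levels of 3.80 (WT) and 3.71 (*Dyrk2*-/-) at E8.5, with 2.38 and 2.28 at E10.5. *Etv5* was at 4.64 and 4.72 at E8.5, with 3.46 and 3.47 at E10.5. Both were high on the E8.5 arrays and lower on the E10.5 arrays, with the genotypes within 0.10 of each other at each stage. *Etv4* was 2.67-fold lower at E10.5 in WT and 2.69-fold lower in *Dyrk2*-/- (limma −1.42 ± 0.12 SE, adjusted p = 3.10e-05). *Etv5* was 2.26-fold and 2.37-fold lower (−1.21 ± 0.11 SE, adjusted p = 6.99e-05). *Dusp6*, which removes the activating phosphates from ERK, lay between 3.81 and 4.11 on the 4 arrays and was called in 0 comparisons, with an adjusted p for stage of 0.179. With spike-in scaling *Dusp6* and *Etv4* (log2 −0.64) were called lower in *Dyrk2*-/- at E8.5.

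Sprouty proteins block the step from receptor to RAS, and Spred proteins hold back RAF. *Spry2* was at log2 levels of 2.39 (WT) and 2.48 (*Dyrk2*-/-) at E8.5, with 1.21 and 1.32 at E10.5. *Spry4* was at −2.40 and −2.25 at E8.5, with −3.61 and −3.60 at E10.5. Both were lower at E10.5 in both genotypes. *Spry2* was 2.27-fold lower at E10.5 in WT and 2.24-fold lower in *Dyrk2*-/- (limma −1.17 ± 0.12 SE, adjusted p = 0.000128), and with spike-in scaling it was under the threshold in *Dyrk2*-/- (−0.52). *Spry4* was 2.31-fold and 2.54-fold lower (−1.28 ± 0.23 SE, adjusted p = 0.00283), and a normexp correction brought its log2 differences to −0.62 and −0.69, still past the threshold. *Spry1*, needed for the kidney to form a single ureteric bud, passed 1.5-fold only in *Dyrk2*-/-, where it was 1.65-fold lower against 1.37-fold in WT, and was called by limma (adjusted p = 0.0068). In *Dyrk2*-/- the *Spry1* difference was −0.09 with spike-in scaling and −0.42 without scaling, both under the threshold, and limma without the intensity trend did not call it. *Spry3* was not called by stage (adjusted p = 0.819).

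*Spred3* was at log2 levels of −1.66 (WT) and −1.71 (*Dyrk2*-/-) at E8.5, with −2.33 and −2.51 at E10.5, lower on both E10.5 arrays. It was 1.59-fold lower in WT and 1.73-fold lower in *Dyrk2*-/- (limma −0.73 ± 0.18 SE, adjusted p = 0.0138), and it was under the threshold in both genotypes with a normexp correction or no scaling between arrays, and in *Dyrk2*-/- with spike-in scaling. *Spred1*, whose human counterpart is mutated in Legius syndrome, and *Spred2* were not called, with log2 differences between stages from −0.46 to −0.23 by their brightest probes. The other *Spred1* probe was 1.57-fold lower in *Dyrk2*-/-, and a dimmer *Spred2* probe had the other sign in WT (0.42). In all, 5 of 10 feedback and target genes were called lower at E10.5 in WT and 6 of 10 in *Dyrk2*-/-, beside 15.9% and 13.3% of all genes, and 0 were higher in either, beside 17.3% and 14.9%. With spike-in scaling 3 of the 10 were lower in *Dyrk2*-/- (*Etv4*, *Etv5* and *Spry4*) and 1 was higher (*Spry3*), and limma called 0 of the 10.

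Between genotypes the calls depended on the scaling of the arrays. At E8.5, 1 of 30 measured members was lower in *Dyrk2*-/- (*Fgf14*, by the bound above) and 0 were higher, beside 4.53% of all genes lower and 4.72% higher. *Fgf14* entered through the WT array alone, the measurement error of its difference was 0.45, and with a normexp correction the difference was −0.07. With spike-in scaling 15 of 30 members were called lower at E8.5 in place of 1, beside 9614 of 20709 genes. The median of all genes lay at −0.56 there. At E10.5, 2 of 29 were lower (*Fgf3* and *Fgf4*) and 0 higher, beside 3.09% of all genes lower and 2.40% higher. limma called 0 members lower and 0 higher for genotype, beside 0.00957% and 0.0191% of all genes, and 2 of 29 members had an unadjusted p under 0.05, beside 1187 of 20901 genes. The members' shares called lie near those of all genes. The median log2 difference at E8.5 was −0.03 for members and −0.02 for all genes, and at E10.5 it was −0.10 and −0.0008.

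**Figure D3:**
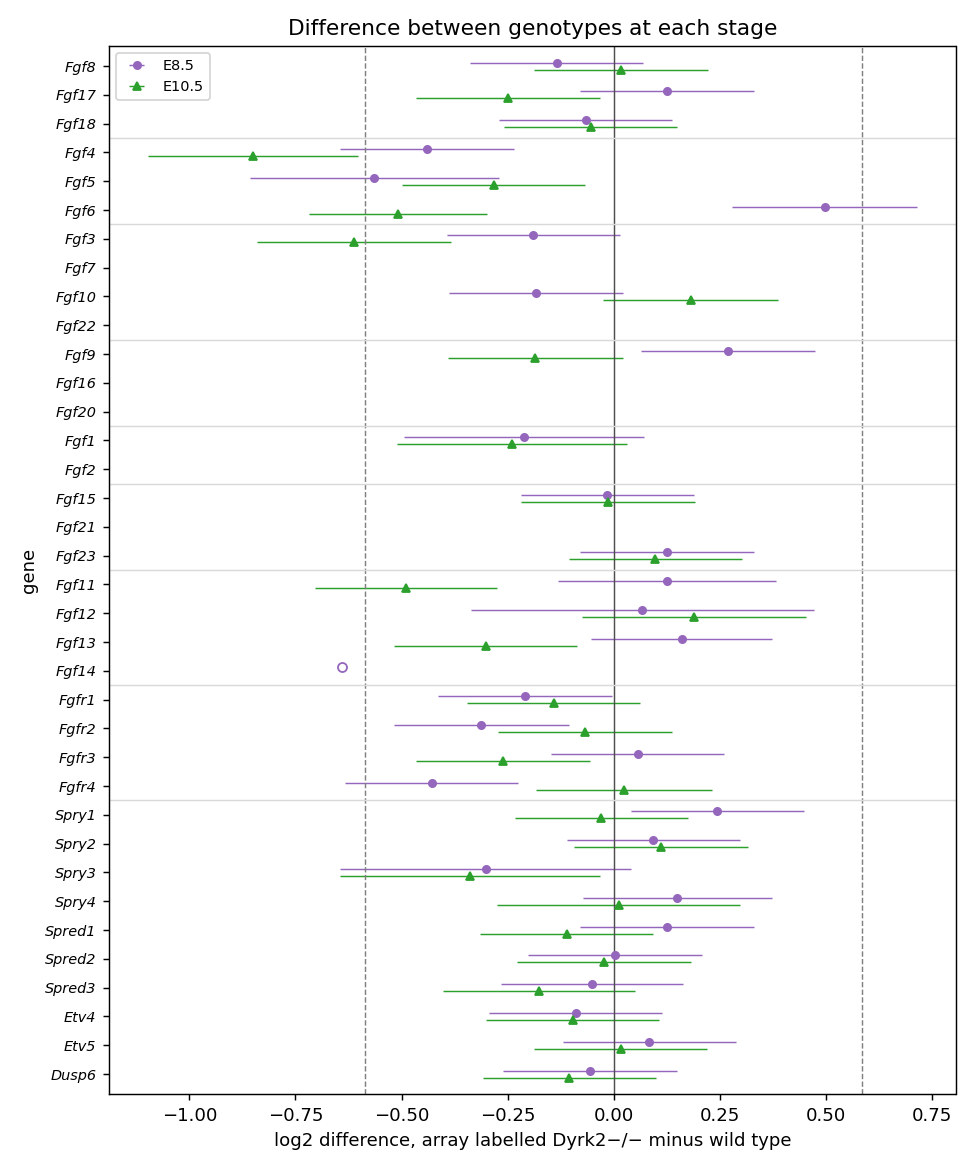
Log2 difference of each member between the array labelled *Dyrk2*-/- and WT (x axis) at E8.5 (purple circles) and E10.5 (green triangles), with bars for the scanner's measurement error of the difference and dashed lines at 1.5-fold. The open circle is the bound for *Fgf14*, genes without a symbol were not well above background on either array, and *Fgf4* at E10.5 lies at −0.85.

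At E10.5 *Fgf4* was 1.80-fold lower in *Dyrk2*-/- (log2 −0.85, measurement error 0.25), and *Fgf3* was 1.53-fold lower (−0.61, measurement error 0.23). At E8.5 the differences were −0.44 for *Fgf4* and −0.19 for *Fgf3*, neither called. Over both stages limma gave −0.65 ± 0.17 SE for *Fgf4* (unadjusted p = 0.0048, adjusted p = 0.581) and −0.40 ± 0.16 SE for *Fgf3* (unadjusted p = 0.0312, adjusted p = 0.976), lower in *Dyrk2*-/- at 2 of 2 stages by the brightest probe. The probes of *Fgf3* did not share a sign at E8.5, where the probe across the junction differed by 0.08 and the next by −0.03. At E10.5 the next probe was at least 1.41-fold lower in *Dyrk2*-/-, and *Fgf15*, their neighbour, differed by −0.02 at E8.5 and −0.01 at E10.5. Both called genes sit low on the E10.5 arrays, where a normexp correction brought the differences to −0.38 for *Fgf4* and −0.26 for *Fgf3*, under the threshold, and scaling by spike-in probes brought *Fgf3* to −0.45. The direction was the same under each of 6 scalings. All of these start from the same arrays, so that agreement is not independent support.

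*Fgf8* and *Fgf17* did not pass the threshold between genotypes, with log2 differences of −0.13 and 0.13 at E8.5, with 0.02 and −0.25 at E10.5. *Fgf5* lay just inside it at E8.5, at 1.48-fold lower (−0.56), and *Fgf6* and *Fgf11* at E10.5, at 1.42-fold (−0.51) and 1.40-fold lower (−0.49). The other measured probes of these 2 genes passed it at E10.5, that of *Fgf6* at 2.18-fold lower and that of *Fgf11* at 1.71-fold lower. None of the 10 feedback and target genes was called at either stage, with differences from −0.30 (*Spry3*) to 0.24 (*Spry1*) at E8.5 and from −0.34 (*Spry3*) to 0.11 (*Spry2*) at E10.5. The medians of the 10 were 0.04 at E8.5 and −0.06 at E10.5. With spike-in scaling *Dusp6*, *Etv4*, *Spred3* and *Spry3* were called lower in *Dyrk2*-/- at E8.5. Of 29 members measured on all arrays, 12 were lower in *Dyrk2*-/- at both stages, 5 higher at both and 12 opposite in sign, beside 25.2%, 23.6% and 51.2% of the 18686 genes so measured.

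Genes that work with the ligands and receptors were read from lists. Of 12 binding partners and heparan sulphate enzymes, 11 were measured at E8.5 and 1 was lower in *Dyrk2*-/-, *Klb*, the co-receptor for FGF15 and FGF21, by 1.92-fold, and 0 of 10 were called at E10.5. Between stages 4 of the 11 measured were higher and 3 lower at E10.5 in WT, with 3 higher and 2 lower in *Dyrk2*-/-, beside the shares of all genes given above. Of 21 genes that relay the signal from receptor to ERK, 0 were called between genotypes at either stage, with medians of 0.01 and −0.04, and 2 were lower at E10.5 in both genotypes. Of 12 other response genes of FGF and ERK, *Egr1*, an immediate early gene, was 2.21-fold higher in *Dyrk2*-/- at E8.5, with a log2 difference of −0.06 at E10.5. Of those 12 genes, 4 were lower at E10.5 in WT and 3 in *Dyrk2*-/-, and 1 was higher in WT. limma called 5 of 21 relay genes and 4 of 12 response genes lower at E10.5, beside the 20.5% of all genes given above.

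Markers of 3 embryonic regions that make FGFs were read beside the members. Counts called in these and later lists stand beside the following shares of all genes. Between genotypes, 4.53% were lower and 4.72% higher in *Dyrk2*-/- at E8.5, with 3.09% and 2.40% at E10.5. From E8.5 to E10.5, 15.9% were lower and 17.3% higher in WT, with 13.3% and 14.9% in *Dyrk2*-/-. Of 11 tail bud genes, 10 were lower at E10.5 in WT and 9 in *Dyrk2*-/-, and their summed level, in units of the 75th percentile signal of each array, was 46.6 (WT) and 39.9 (*Dyrk2*-/-) at E8.5, then 5.92 and 4.41 at E10.5. Such a sum adds probes of unequal brightness, so it is read only between arrays, and *Cdx2* added most to it over the 4 arrays. At E8.5 the tail bud genes called lower in *Dyrk2*-/- were *Nkx1-2* and *Mesp2*, 2 of 11. At E10.5, beside the lower *Fgf3* and *Fgf4*, 3 of 7 measured tail bud genes were lower in *Dyrk2*-/-, namely *T* (log2 −1.49), *Tbx6* (−1.66) and *Cdx2* (−0.71), and 0 were higher. limma called 0 of 11 tail bud genes for genotype, and 6 had an unadjusted p under 0.05, beside 1187 of 20901 genes. Among the 6 were *Cdx4*, *Nkx1-2* and *Mesp2*, whose fit uses E10.5 values that were not well above background. *Msgn1*, *Cdx4*, *Nkx1-2* and *Mesp2* were not well above background on either E10.5 array. Between genotypes the measured tail bud genes had a median of −0.21 at E8.5, against −0.44 at E10.5. The part of the tail bud in the differences of *Fgf3* and *Fgf4* was not tested.

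Of 7 genes of the midbrain and hindbrain border, 6 were measured, no array showed *En1* well above background, and 3 were lower at E10.5 in WT and 4 in *Dyrk2*-/-. Between genotypes 0 were called at either stage. Their summed level was 18.5 and 18.6 at E8.5, then 13.4 and 14.1 at E10.5 (WT and *Dyrk2*-/-), to which *Otx2* added most. Of 10 limb bud genes, 2 were higher and 1 lower at E10.5 in WT, with 1 higher and 1 lower in *Dyrk2*-/-, and 0 were called between genotypes at E8.5, and at E10.5 *Dlx5* was higher (log2 0.59) and *Dlx6* lower (−0.61) in *Dyrk2*-/-. Their summed level was 36.2 and 34.9 at E8.5, then 30.4 and 30.1 at E10.5, and *Msx1* added most to it. The part of these regions in the stage differences of the ligands was not tested.

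Markers of other cell types also differed between the arrays, and the shares of all genes given with the tail bud genes apply here too. Of 15 erythrocyte genes on the array, 14 of 14 measured were higher in *Dyrk2*-/- at E8.5 and 10 of 15 at E10.5, and their summed level was 17.6 (WT) and 390 (*Dyrk2*-/-) at E8.5, then 1422 and 1683 at E10.5, to which *Hbb-bh1* added most over the 4 arrays. Between stages 15 of 15 were higher at E10.5 in both genotypes. Of 9 yolk sac endoderm genes, 6 were lower in *Dyrk2*-/- at E8.5 and 0 were called at E10.5, with summed levels of 53.6 and 35.0 and then of 25.0 and 20.4, to which *Afp* added most over the 4 arrays. Between stages 7 of the 9 were lower at E10.5 in both genotypes, with a median log2 difference of the 9 of −4.01 in WT and −3.32 in *Dyrk2*-/-, and *Afp* was not among the 7. Of 5 decidua and trophoblast genes on the array, 2 of 4 measured (*Prl8a2* and *Prl3d1*) were higher in *Dyrk2*-/- at E8.5 and 0 of 2 were called at E10.5. Their summed level was 1.01 and 1.20 at E8.5, then 0.571 and 0.482 at E10.5, *Plac1* added most to it, and no array showed *Tpbpa* well above background. *Xist* was well above background only on the *Dyrk2*-/- E10.5 array, where the 4 Y-linked genes of the sex chromosome list were called lower than in WT and *Eif2s3y* was at least 43.2-fold lower. The summed level of the 5 sex chromosome genes was 4.67 and 4.24 at E8.5, then 3.52 and 0.816 at E10.5, to which *Eif2s3y* added most over the 4 arrays. That sum adds *Xist* to the Y-linked genes. By brightest probes, only *Xist* (log2 −0.37) was well above background on the *Dyrk2*-/- E10.5 array. A dimmer probe of the Y-linked *Kdm5d* was well above background there at −2.78, against −2.61 in WT at E10.5. The X-linked *Fgf13* differed by 0.16 between genotypes at E8.5 and by −0.30 at E10.5. The part of these cell types and of sex in the differences of the FGF genes was not tested.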

How the data were processed

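One-colour Agilent microarrays, 1 per group and all on 1 slide (positions 3, 4, 1 and 2), had received whole-embryo RNA. The authors deposited the scanner's linear intensity of each spot, with background removed and a correction for where a spot lies, made with Feature Extraction 10.7.1.1 per the file headers (9.5.1.1 in the submitters' processing notes), and also deposited linear intensities that share 1 distribution. Spots of a probe were averaged as log2 without outlier spots, less the array's 75th percentile. Each of the 69 member probes had 1 spot. A gene was its brightest probe by the mean of 4 arrays, named as in the files, and of 36 member probes 34 had an accession in the RefSeq table, each with the same symbol. A pair of arrays was compared at 1.5-fold for genes that either array showed well above background. The study also selected probes by this fold, and the background filter was added here.

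limma 3.58.1 (lmFit, eBayes with an intensity trend) tested stage and genotype on the 32289 probes that 2 or more arrays showed well above background, with Benjamini-Hochberg adjustment. It was tested on simulated data, where with 1 residual degree of freedom the prior degrees of freedom were mostly estimated too high and more unchanged probes were called than the adjusted p allows. Percentages of all genes count 1 probe per gene. Alternatives were quantile normalization, normexp with an offset of 50, scaling by 7 spike-in probes, no scaling, the deposited values, stricter and no filters, the mean over probes, 2-fold, a Z-score beyond 2, and limma without the trend. The mean over probes also takes in probes of a gene that were not above background. Folds from measured values without the bound were an alternative chosen after seeing the data.

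Values on all 4 arrays are given for members called between genotypes at a stage or between stages in both genotypes, and others by ranges and counts. From other lists, genes called between genotypes are named, except erythrocyte, yolk sac endoderm and most sex chromosome genes, which are only counted. In each marker list the gene with the highest mean linear signal is named. Other genes are named because they bear on these, after their values were seen. Members and lists were chosen with earlier results of these data known. Software was matplotlib 3.10.9, pandas 2.3.3, numpy 2.4.6 and Python 3.11.15, with data.table (version 1.17.8) in R 4.3.3.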

Additional observations from a re-analysis of the deposited data

Results flagged for a closer look

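*Fgf6* and *Fgf11* differed between genotypes in opposite directions at the 2 stages, and in each the 2 differences were 1.5-fold or more apart. *Fgf6* differed by log2 0.50 at E8.5 and by −0.51 at E10.5, and *Fgf11* by 0.13 at E8.5 and by −0.49 at E10.5. Whether these differences differ between the stages was not tested, since each rests on 1 array per group. The other measured probe of *Fgf11* differed by 0.26 and −0.78, the same signs, while that of *Fgf6* was not well above background in *Dyrk2*-/- at E8.5 and differed by −1.12 at E10.5. At E8.5 that *Fgf6* probe was well above background in WT, and its bound of −0.02 has the sign opposite to the brightest probe.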

How the results depend on the processing

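The members called between stages were 14 to 22 in WT and 13 to 19 in *Dyrk2*-/- across the alternatives, against 19 and 17, except that a Z-score beside the threshold left 3 (*Fgf3*, *Fgf4* and *Fgf8*) and 4 (these and *Fgf17*). All 19 and 17 kept their sign under the 6 scalings, and 14 and 10 stayed past the threshold in each. limma for stage called 4 members with spike-in scaling, against 20, and 16 to 22 in the other settings, losing *Fgf10*, *Fgf18*, *Fgf23* and *Spry1* without the intensity trend and *Fgf18*, *Spred3* and *Spry1* without scaling. The cause was not tested.

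Calls between genotypes were few and moved with most settings. At E8.5, in place of 1 member, quantile normalization and the deposited table gave 2, no filter 3, no scaling 4 and spike-in scaling 15, all lower except 1 without a filter, and normexp, the filter on both arrays, 2-fold and the Z-score gave 0. At E10.5, in place of 2, spike-in scaling and the Z-score gave 1, no scaling and no filter 4, the mean over probes 5 (the last 2 settings with 1 higher), and normexp and 2-fold gave 0. limma for genotype called 2 members (*Fgf3* and *Fgf4*, lower) without scaling, and 0 in each other setting. Of all 20901 genes, 560 were called without scaling in place of 6. Folds without the bound left the 4 counts as they were.

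Spike-in scaling put the median of all genes at −0.56 at E8.5 and 0.16 at E10.5 between genotypes, and at −0.16 in WT and 0.56 in *Dyrk2*-/- between stages, a shift that is the same for every probe of an array. No scaling put it at −0.27, −0.13, 0.09 and 0.23. Of all genes called, the share higher then went from 51.0% to 1.67% and 12.1% at E8.5, and from 43.7% to 74.6% and 22.6% at E10.5. Between stages it went from 53.0% to 93.3% and 80.6% in *Dyrk2*-/-, and from 52.2% to 44.7% and 69.5% in WT. Of the members called in *Dyrk2*-/- between stages, 10 were higher and 9 lower with spike-in scaling. Uncalled differences between genotypes changed sign with scaling, such as *Fgf8* at E10.5 (0.02, and −0.11 without scaling), *Etv4* at E10.5 (−0.10, and 0.07 with spike-in scaling), *Fgf15* at E10.5 (−0.01, and 0.15 with spike-in scaling) and *Spry2* at E8.5 (0.09, and −0.45 with spike-in scaling), so their directions depend on the scaling. Signal near background limits *Fgf5*, *Fgf11*, *Fgf12*, *Fgf14*, *Spry4*, and *Fgf3* and *Fgf4* at E10.5.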

Other observations

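Where more than 1 probe of a member was above background on both arrays, the probes shared their sign for 10 of 12 members between stages in WT and for 7 of 8 in *Dyrk2*-/-, and between genotypes for 4 of 9 at E8.5 and 8 of 12 at E10.5. The brightest *Spry2* probe differed between genotypes at E8.5 by 0.09 (log2) and its other probe by −0.54.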
